A study of Mus musculus with 28 samples.

Results

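The genes described here are named as genes of cytosolic ribosomal proteins and were measured in the hippocampus of wild-type and cbp+/- mice. They were chosen by name: a row of the deposited array table counted if it carried exactly 1 gene symbol and that symbol was an Rpl or Rps number (with an a, x, l or l1 ending allowed), Rplp0, Rplp1, Rplp2 or Rpsa, and the row with the highest mean stood for each gene. This gave 60 genes, 38 of the large and 22 of the small subunit, among 19938 named genes. RefSeq lists 83 protein-coding mouse genes whose symbols fit the rule, and 1 of the 60 is not among them. Of the 83, 24 were not analysed here, 17 because their rows carry several symbols. Rpl3, Rpl11, Rps27a and Rpl22l1 are among the 24.

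Mice were 3-month-old C57/DBA F1 hybrid females, either wild type or cbp+/-, that is, carrying 1 functional copy of the gene for the histone acetyltransferase CBP. In each genotype the groups were naive mice in the standard cage (2 arrays), vehicle (DMSO/saline) in the standard cage, trichostatin A (TSA, an inhibitor of histone deacetylases, 2.4 mg/kg) in the standard cage, vehicle with novelty, and TSA with novelty (3 arrays each). Novelty was 1 h in a white box with tubing and toys, begun 15 min after the injection, and tissue was taken 75 min after TSA. Each of the 28 arrays (Affymetrix Mouse Gene 1.0 ST) was hybridised with RNA pooled from 3 to 4 mice. The spread between arrays is thus a spread between pools, not single mice, and it includes the array sets described below. Whole hippocampus was used, so a change in the number of cells of a type and a change in RNA per cell cannot be told apart. All values are log2 signals as deposited, and differences between groups are differences of log2 signal.

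The cytosolic ribosome joins a small subunit, which reads the messenger RNA, to a large subunit, which forms the peptide bond, around scaffolds of ribosomal RNA. Cells make its proteins in balanced amounts, and most of their mRNAs begin with a C followed by a run of pyrimidines, the 5' terminal oligopyrimidine (TOP) tract, through which mTOR and LARP1 control their translation. In neurons ribosomes also lie in dendrites, where local protein synthesis follows activity.

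RefSeq promoter windows of 300 bases (GRCm38.p6, 250 before and 50 after the annotated start) were found for 48 of the 60 genes, 57 windows in all. A C followed by 4 or more pyrimidines, on the coding strand and beginning within 5 bases of the annotated start, was present in 20 of 57 windows (35.1%) against 18.4% of 32534 windows of all genes. At the annotated start itself, such a run was present in 10 windows (17.5%) against 2.51%. CCGGAAG, on either strand anywhere in the window, was present in 19 (33.3%) against 8.92%, GGGCGG in 32 (56.1%) against 35.9%, and AAGATGG in 5 (8.77%) against 6.37%. TATAAA, on either strand from 40 to 15 bases before the start, was present in 0 windows against 2.47% of all. AAGATGG can share its first letters with the end of CCGGAAG. A match describes the sequence only.

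The windows from 60 bases before to 15 bases from the annotated start follow for 8 genes (75 bases each, 5' to 3' on the coding strand), because the results below turn on them: Rpl19, Rpl7a and Rpl6 followed the other members most closely across arrays, Rps15a, Rpsa and Rplp0 least, and Rpl24 and Rplp2 were, with Rpsa, the members with the smallest p between naive and vehicle mice. Capitals mark the first C with 4 or more pyrimidines within 5 bases of the start.
Rpl19, upstream start (chr11:98026650-98026724, plus strand): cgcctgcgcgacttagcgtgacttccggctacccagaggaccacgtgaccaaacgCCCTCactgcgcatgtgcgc
Rpl19, downstream start (chr11:98026864-98026938, plus strand): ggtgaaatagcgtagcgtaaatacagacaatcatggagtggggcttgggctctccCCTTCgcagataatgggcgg
Rpl7a (chr2:26910747-26910821, plus strand): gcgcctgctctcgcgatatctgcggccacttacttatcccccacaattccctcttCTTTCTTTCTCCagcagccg
Rpl6 (chr5:121204441-121204515, plus strand): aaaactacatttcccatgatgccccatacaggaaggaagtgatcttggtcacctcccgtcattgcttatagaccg
Rps15a (chr7:118116133-118116207, minus strand): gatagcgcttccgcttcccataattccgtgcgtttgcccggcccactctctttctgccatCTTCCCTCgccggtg
Rpsa (chr9:120127706-120127780, plus strand): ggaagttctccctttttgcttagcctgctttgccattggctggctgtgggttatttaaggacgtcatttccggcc
Rplp0 (chr5:115559407-115559481, plus strand): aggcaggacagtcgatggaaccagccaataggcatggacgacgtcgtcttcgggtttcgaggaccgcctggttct
Rpl24 (chr16:55966215-55966289, plus strand): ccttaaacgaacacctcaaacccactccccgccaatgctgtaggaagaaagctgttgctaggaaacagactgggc
Rplp2 (chr7:141447591-141447665, plus strand): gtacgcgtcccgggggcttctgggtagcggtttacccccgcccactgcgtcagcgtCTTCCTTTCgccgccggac
Both Rpl19 starts, Rpl7a, Rps15a and Rplp2 hold such a run in these positions, and the longest marked stretch is that of Rpl7a (12 bases). Windows of Rpl6, Rpsa, Rplp0 and Rpl24 hold none there. The search opened 5 bases before the start. In Rpl7a and the downstream Rpl19 window the pyrimidines go on upstream of the capitals, so those marked lengths are cut at that edge.

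The 24 injected arrays fell into 3 sets, and this split comes before every comparison below. The TSA and novelty arrays carry replicate numbers 1 to 3, and arrays with the same number deviated together from their group means over all genes (r from 0.523 to 0.802 in 45 pairs), whereas arrays with different numbers did not (-0.625 to -0.073 in 90 pairs). The vehicle arrays in the standard cage are numbered 3 to 5, and by the same measure number 3 went with number 1, 4 with 2 and 5 with 3 of the other groups (r from 0.419 to 0.811 in 36 pairs). The labels give no reason for these sets. They are called array sets 2, 3 and 4 here (8 arrays each, 1 of every injected group). The 4 naive arrays, numbered 1 and 2, are named set 1 by their condition and not by their values. By the same measure, naive arrays of the 2 genotypes gave r from -0.121 to 0.121 in 4 pairs. Correlations between arrays over all genes lay between 0.973 and 0.998. In 3 arrays of set 2 (wild type with novelty and TSA replicate 1, cbp+/- vehicle replicate 3 and cbp+/- TSA in the cage replicate 1) choroid plexus markers lay over 0.9 above the median array.

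Ribosomal protein genes followed these sets more than they followed treatment or genotype. Over the 60 genes, the mean deviation from each gene's 28-array mean was -0.17 ± 0.012 (SD, n = 4) in set 1, -0.13 ± 0.070 (n = 8) in set 2, 0.048 ± 0.030 (n = 8) in set 3 and 0.16 ± 0.10 (n = 8) in set 4. Sets 1 and 2 lay below 0 in every array and set 3 lay above 0 in every array. Set 4 ran from -0.041 to 0.30, with its lowest value in wild type with novelty and TSA replicate 3 and the other 7 arrays at 0.11 or more. Between groups the same score ran from -0.17 ± 0.019 (SD, n = 2) in cbp+/- naive and -0.17 ± 0.0053 (n = 2) in wild-type naive mice to 0.076 ± 0.13 (n = 3) in cbp+/- vehicle mice, and every group of 3 overlapped every other. In the 24 injected arrays, array set held a median of 72.3% of a member's variance and treatment group 8.89%, against 38.6% and 19.2% over all genes. Genes of mitochondrial ribosomal proteins (77 genes, 72.6%) and of oxidative phosphorylation subunits (81 genes, 73.4%) were split by set to a like degree.

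**Figure D1:**
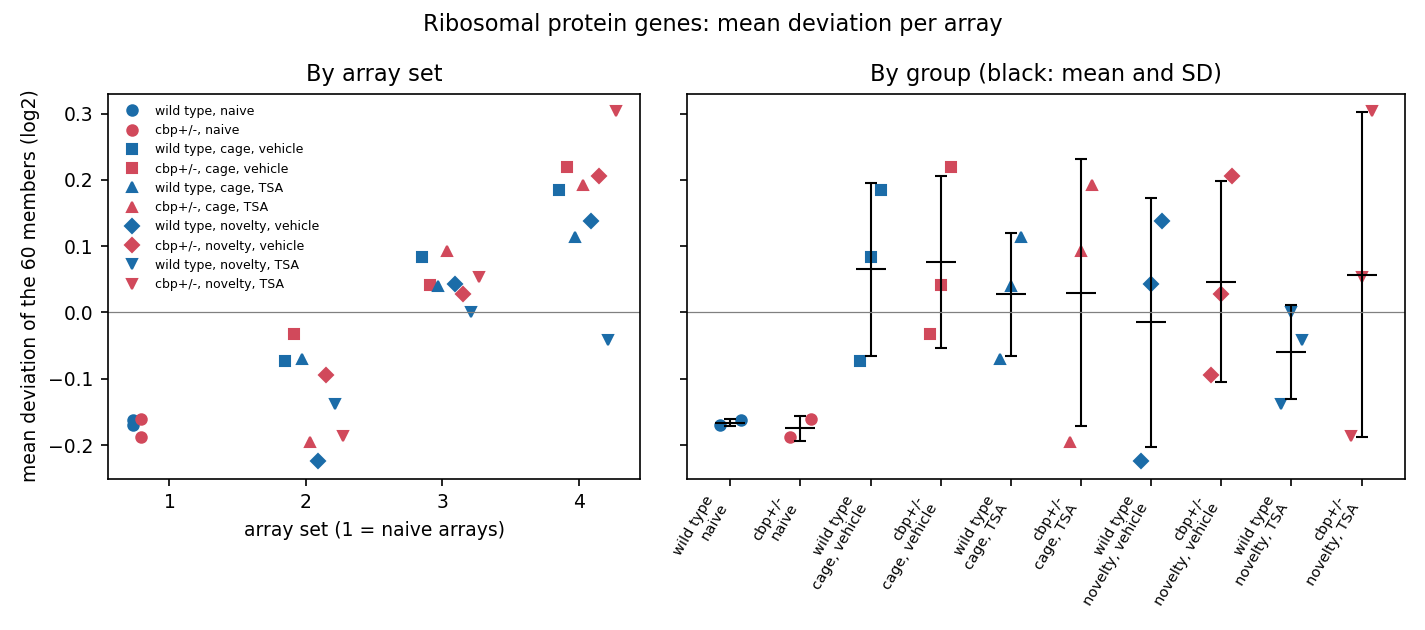
Mean log2 deviation of the 60 ribosomal protein genes in each of 28 arrays, by array set (left) and by group (right; black lines give the mean and SD of each group, n = 2 or 3). Set means run from -0.17 in set 1 to 0.16 in set 4; set 2 (-0.22 to -0.032) spans the range of set 1, set 4 (-0.041 to 0.30) overlaps set 3 (0.00090 to 0.093), and the injected groups overlap.

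The replicate number was tested directly in the 18 TSA and novelty arrays, where the label gives it, with group means in the same limma fit. Between numbers 3 and 1, 40 of 60 members were called at an adjusted p under 0.05, all higher in number 3; the background was 38.4% of all genes called and 15.5% called higher. The median member difference was 0.34, with 53 of 60 above 0, against -0.018 over all genes. Between numbers 2 and 1, 31 members rose and 11 fell (39.2% of all genes called, 16.6% higher and 22.6% lower), with a median of 0.23. Between numbers 3 and 2, 23 rose and 9 fell (46.6% of all genes, 19.8% higher and 26.8% lower), with a median of 0.073. In the 6 vehicle arrays, which were not in this fit but were placed in sets by their values over all genes, the matching differences (5 minus 3, 4 minus 3 and 5 minus 4) had the same sign in 53, 55 and 54 of 60 members.

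**Figure D2:**
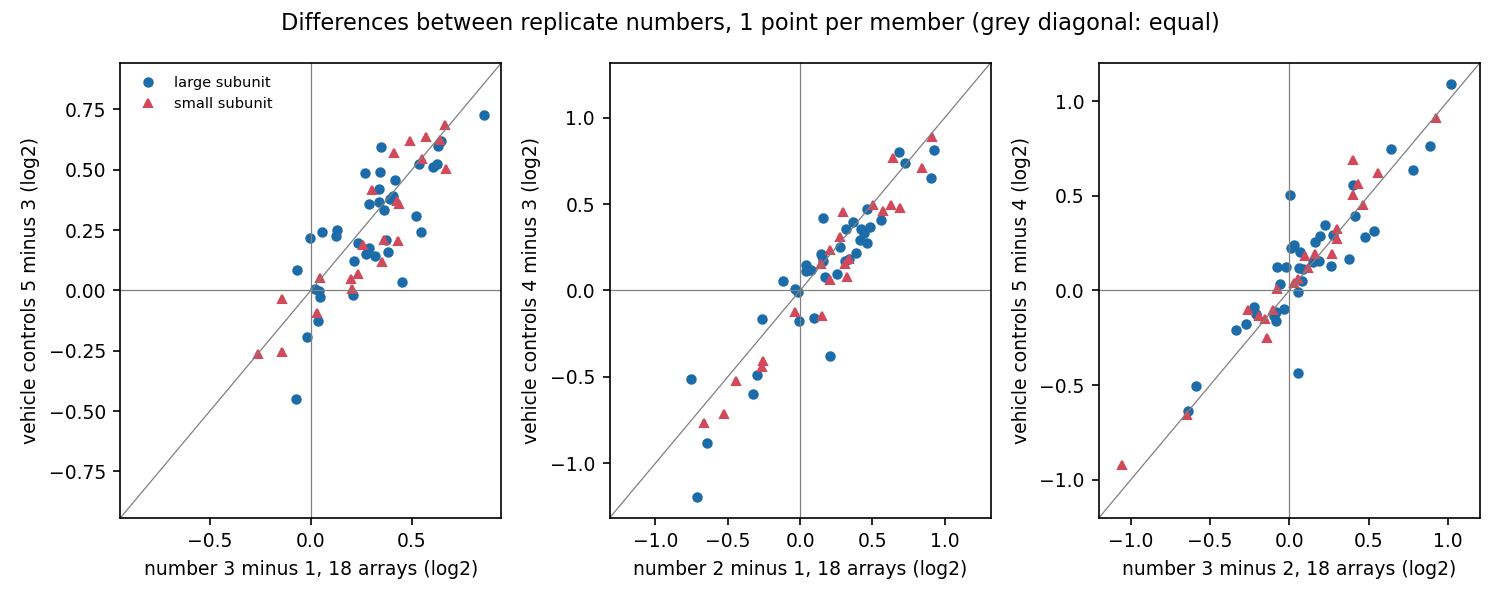
Log2 differences between replicate numbers for the 60 members in the 18 TSA and novelty arrays (horizontal) and the matching differences in the 6 vehicle arrays (vertical), 1 point per gene. Signs match in 53, 55 and 54 of 60 genes in the 3 panels, and large and small subunit genes lie intermingled.

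Most members moved together through the sets. With group means removed, Rpl19 (r = 0.96), Rpl7a (0.96) and Rpl6 (0.95) correlated most closely with the mean of the other 59 members over the 28 arrays, as a description. The median correlation over the 1770 pairs of members was 0.35, with 75.4% above 0, against 0.016 over pairs of all genes, 0.50 over mitochondrial ribosomal protein genes and 0.48 over oxidative phosphorylation genes. With array set also removed it was 0.24. Rpl7a, a large subunit protein, had its lowest, median and highest signal at 8.37, 8.48 and 8.58 in set 1, at 7.78, 7.996 and 8.17 in set 2, at 8.26, 8.34 and 8.58 in set 3, and at 8.50, 8.85 and 9.001 in set 4. Its sets 2 and 3 did not overlap, and its difference between numbers 3 and 1 was 0.86 ± 0.084 (SE, limma adjusted p = 1.2e-07). Rps6, the small subunit protein phosphorylated by S6 kinases, ran from 10.78 to 11.05 in set 2 (median 10.97), from 10.93 to 11.22 in set 3 (11.14) and from 11.33 to 11.73 in set 4 (11.61). Its naive arrays (11.21 to 11.41) lay between sets 3 and 4 in the median, at 11.32, and its difference between numbers 3 and 1 was 0.64 ± 0.067 (adjusted p = 3.08e-07).

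Rpl5, which carries 5S rRNA into the large subunit, had medians of 9.98 in set 2, 10.43 in set 3 and 10.34 in set 4, and was higher in number 3 than in number 1 by 0.38 ± 0.062 (adjusted p = 4.83e-05) and higher in number 2 than in number 1 by 0.47 ± 0.062 (adjusted p = 1.4e-05). Rpl22, an RNA-binding large subunit protein, was higher by 0.34 ± 0.083 and 0.28 ± 0.083 in the same contrasts (adjusted p = 0.00286 and 0.0135). Rpl41, a very short basic peptide of the large subunit, was higher in number 3 than in number 1 by 0.39 ± 0.076 (adjusted p = 0.000335), while its difference between numbers 2 and 1 was -0.0089 ± 0.076 (adjusted p = 0.934).

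Other members split set 3 from the rest in either direction. Rpl10, a large subunit protein that joins late in assembly, ran from 10.82 to 10.98 in set 3, below all arrays of set 1 (11.24 to 11.30), set 2 (11.55 to 11.76) and set 4 (11.85 to 12.02). Its difference between numbers 3 and 2 was 1.02 ± 0.055 (adjusted p = 2.16e-10), and its top pair of rows gave r = 0.999. Rps4x, the X-linked small subunit protein, was instead highest in set 3: it ran from 9.34 to 9.76 there, above all arrays of set 1 (8.83 to 8.97), set 2 (8.59 to 8.96) and set 4 (8.69 to 9.12), with a difference between numbers 2 and 1 of 0.84 ± 0.085 (adjusted p = 8.08e-07). Rps14, named after its values were seen, ran from 10.56 to 10.68 in set 3 and lay at 9.84 or below in every other array (number 2 minus 1, 0.91 ± 0.079). Rpl26 and Rpl38, named in the same way, had their highest and lowest medians in set 3, but overlapped other sets. Rpl26 ran from 7.42 to 8.04 there, against up to 7.49 in set 1 and 7.54 in set 4 (0.93 ± 0.12), and Rpl38 from 9.78 to 9.96, against 9.92 and above in set 1 (-0.75 ± 0.092). Rps18, also named after its values were seen, ran from 11.19 to 11.33 in set 4 and from 10.22 to 10.78 in sets 2 and 3.

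Rps15a (r = -0.38), Rpsa (-0.27) and Rplp0 (-0.23) ran against the mean of the other members. For Rpsa this is the value of 1 of 5 rows, and its top pair of rows gave r = 0.234. Rps15a, a small subunit protein, ran from 8.23 to 8.75 in set 2 and from 7.35 to 8.01 in set 3, without overlap, and was lower in number 2 than in number 1 (-0.66 ± 0.11, adjusted p = 0.000113). Rplp0, the core protein of the stalk that recruits elongation factors to the large subunit, ran from 9.88 to 10.47 in set 2 and from 9.18 to 9.54 in set 3, again without overlap (-0.71 ± 0.082, adjusted p = 2.82e-06). Its partners in the stalk did not share this order. Rplp1 was higher in number 2 than in number 1 (0.31 ± 0.068, adjusted p = 0.00128), and Rplp2 differed by -0.014 ± 0.081 (adjusted p = 0.903). As a mean over Rplp0, Rplp1 and Rplp2, the stalk deviated by -0.41 ± 0.060 (SD, n = 4) in set 1, 0.14 ± 0.098 (n = 8) in set 2, -0.048 ± 0.083 (n = 8) in set 3 and 0.11 ± 0.12 (n = 8) in set 4.

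**Figure D3:**
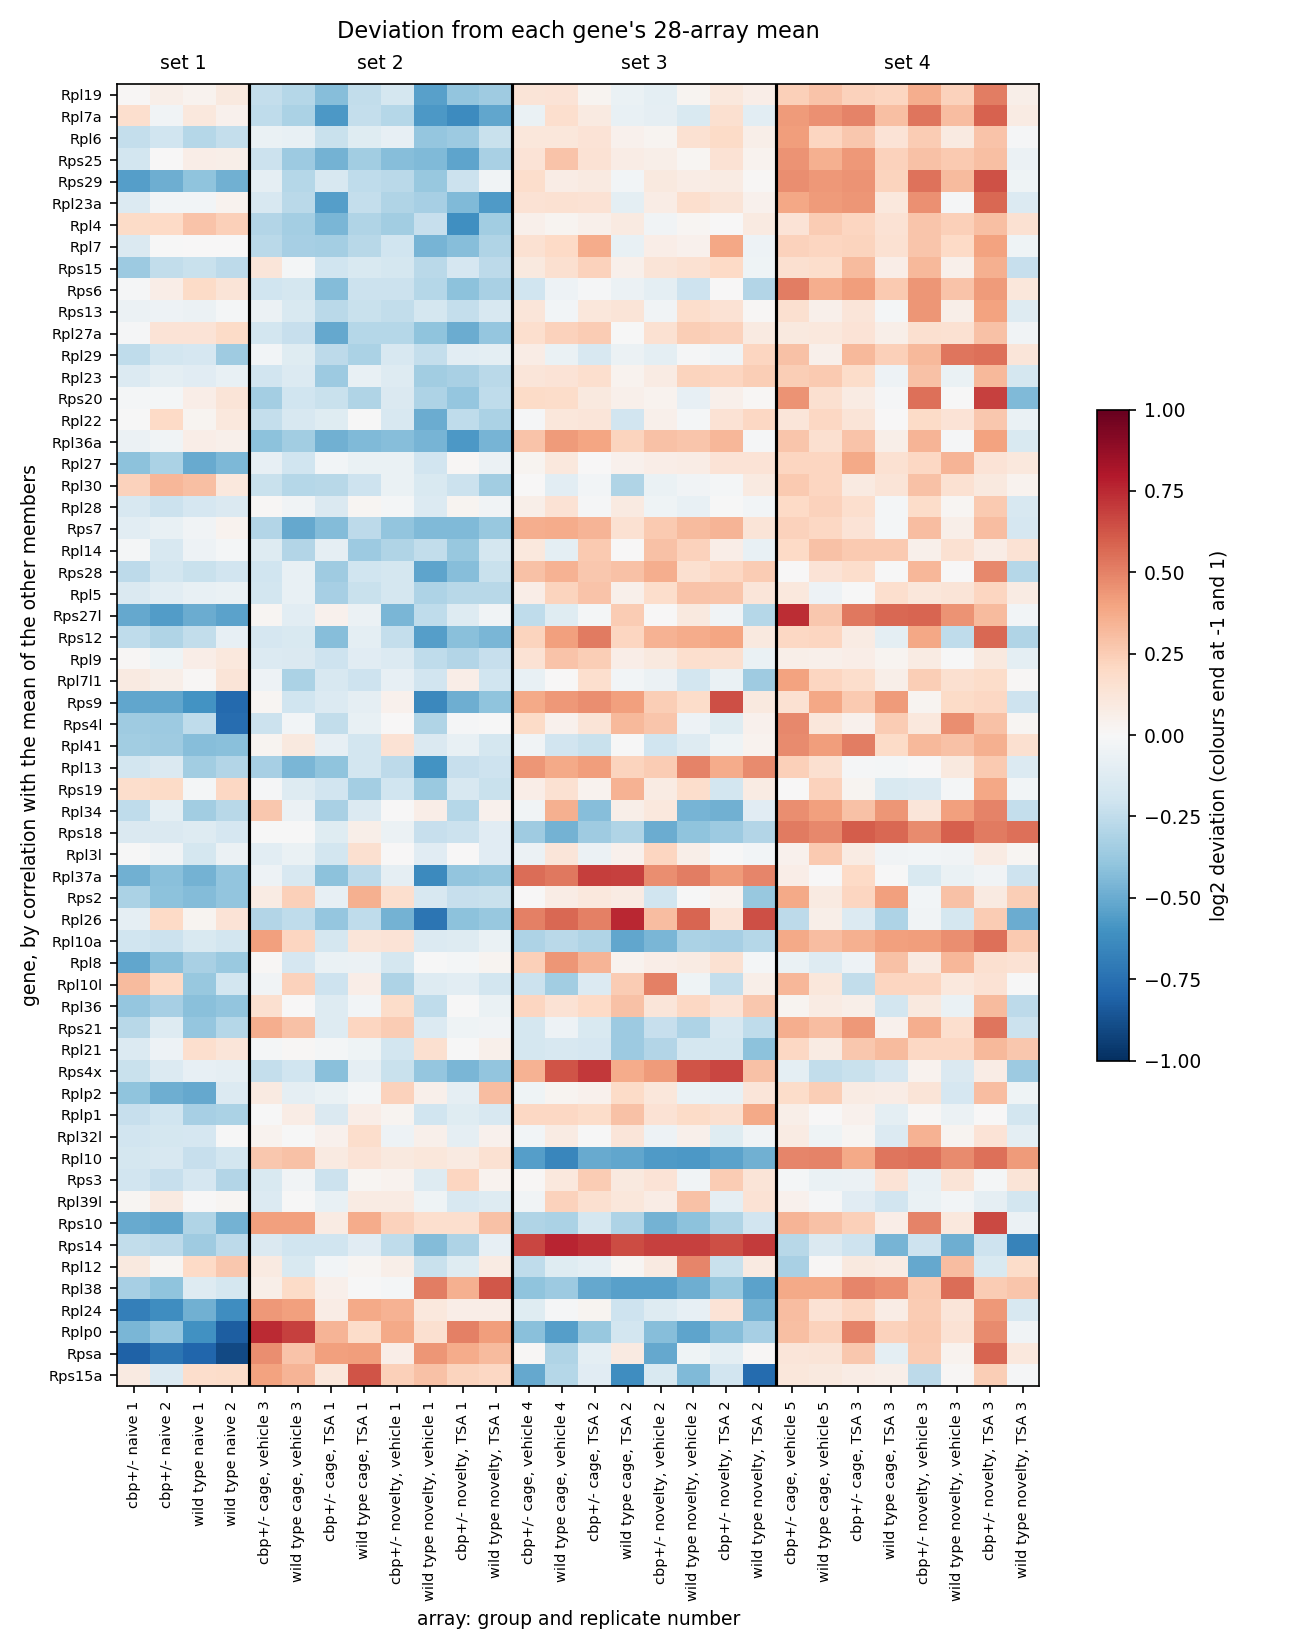
Log2 deviation of each of the 60 members (rows, from the closest to the least correlated with the mean of the others) from its own mean in each of the 28 arrays (columns, by array set; black lines part the sets). Upper rows go from low in set 2 to high in set 4, Rpl10, Rpl38 and Rplp0 are low in set 3, and Rps4x and Rps14 are high there.

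Of 7 paralogues measured, 3 passed the threshold between numbers 3 and 1, beside 38.4% of all genes called. Rpl3l, a muscle form of Rpl3, differed by 0.055 ± 0.066 between numbers 3 and 1 (adjusted p = 0.581), and Rpl39l and Rpl10l, both known from testis, by -0.070 ± 0.065 (0.454) and 0.22 ± 0.091 (0.0684). Rpl32l, which was not in the fixed set of paralogues, differed by 0.023 ± 0.078 (0.865). The 28-array means of Rpl3l, Rpl39l and Rpl10l were 4.09, 3.37 and 4.28, and their signals spanned 3.91 to 4.35, 3.18 to 3.66 and 3.90 to 4.78. Rpl7l1, a nuclear relative of Rpl7 that acts in ribosome assembly, was higher in number 3 by 0.27 ± 0.067 (0.00292), Rps27l, a target of p53, by 0.55 ± 0.093 (7.67e-05) and Rps4l by 0.30 ± 0.090 (0.0113).

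Marker genes of other cell types moved with the sets too, and their part in the member differences was not tested. Over 7 neuron markers the mean deviation ran from 0.20 to 0.35 in set 2, from -0.078 to 0.040 in set 3 and from -0.33 to -0.098 in set 4. Over sets 2 to 4 this order was opposite to that of the member mean. In set 1, where the member mean was lowest, the neuron markers ran from -0.083 to -0.020. Over 5 astrocyte markers the ranges in sets 2, 3 and 4 were 0.15 to 0.46, -0.23 to -0.065 and -0.39 to 0.13. CA1 markers (3 genes, Wfs1, Fibcd1 and Pou3f1) ran from 0.29 to 0.70 in set 2, from -0.51 to 0.083 in set 4 and from -0.42 to -0.33 in set 1. As means of sets 2, 3 and 4, endothelial (0.18, -0.098, -0.21) and choroid plexus markers (0.45, -0.18, -0.28) kept the order of the neuron markers. Dentate granule (0.088, 0.18, -0.22), oligodendrocyte (0.21, -0.18, 0.038) and microglia markers (-0.0051, -0.059, 0.043) did not. Nor did meningeal markers (0.00038, -0.047, -0.024) and the blood marker (0.021, -0.031, 0.0084). The choroid plexus means rest on few arrays, with set 2 running from -0.24 to 1.46. Their medians in sets 2, 3 and 4 were 0.13, -0.2606 and -0.2614, so sets 3 and 4 hardly differed in the median.

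TSA, compared with vehicle to ask how blocking histone deacetylases alters expression, moved no ribosomal protein gene past the threshold. Averaged over both genotypes and both housing conditions, 0 of 60 members were called (limma, 1 mean per group, two-sided, Benjamini-Hochberg over 19938 genes; 0 at an unadjusted p under 0.05), and 0.331% of all genes were. The median member difference was -0.030, with 14 of 60 above 0, against 0.0028 over all genes. With array set as a block, which lowered the median residual SD from 0.179 to 0.125, 0 members were still called and 1 had an unadjusted p under 0.05 (1.67% of members against 16.2% of all genes), while 4.63% of all genes were called. The 95% intervals of all 60 members in that fit lay between -0.36 and 0.24. The member with the smallest p was Rpl34, a large subunit protein, at -0.19 ± 0.083 (SE, adjusted p = 0.226). Its signal was 7.16 ± 0.26 (SD, n = 3) with vehicle and 7.04 ± 0.29 with TSA in wild type in the cage, and 7.15 ± 0.25 and 6.77 ± 0.39 in cbp+/-. With novelty it was 6.92 ± 0.44 and 6.82 ± 0.14 in wild type and 6.998 ± 0.062 and 6.83 ± 0.52 in cbp+/-, so that its groups overlapped. The next lowest were Rps21 (-0.11 ± 0.061, 0.394) and Rpl23a (-0.11 ± 0.059, 0.388), and the highest were Rpsa (0.11 ± 0.062, 0.421), Rps3 (0.090 ± 0.045, 0.335) and Rps18 (0.041 ± 0.038, 0.688).

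In each genotype and housing condition separately, 0 members were called for TSA without the block, where 0% of all genes were called in all 4 comparisons, and 0 with it, where 0.01% (wild type, cage), 0.00502% (cbp+/-, cage), 0.16% (wild type, novelty) and 0.0201% (cbp+/-, novelty) were. Members at an unadjusted p under 0.05 numbered 0 in each without the block and 0, 1, 1 and 1 with it, where 6.14%, 6.02%, 11.9% and 6.34% of all genes had such a p. Median differences were -0.055, -0.039, -0.050 and 0.0079 in that order. Within the 3 array sets the mean member difference of cbp+/- with novelty was -0.092, 0.026 and 0.097, and that of wild type with novelty was 0.086, -0.042 and -0.18, so neither kept 1 sign.

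Novelty likewise left the members on the same side of the threshold. Averaged over genotype and injection, 0 of 60 were called (1 at an unadjusted p under 0.05) against 0.16% of all genes, and 0 (4 at an unadjusted p under 0.05, 6.67% against 8.4% of all genes) against 0.481% called with the set block. The median difference was -0.035, with 12 of 60 above 0, against 0.0014 over all genes, and the blocked 95% intervals lay between -0.35 and 0.21. With the block, the members with the smallest p were Rps9 and Rps2, small subunit proteins near the entry of the mRNA channel. In that fit Rps9 was at -0.22 ± 0.063 (limma adjusted p = 0.165) and Rps2 at -0.20 ± 0.058 (0.187). Without the block they were at -0.22 ± 0.13 and -0.20 ± 0.076, both with a limma adjusted p of 0.9996. The other row of Rps9, which correlated with the first at r = 0.617, gave -0.0094, and the other rows of Rps2 gave -0.12 and -0.15. Rps9 with vehicle was 8.92 ± 0.35 (SD, n = 3) in the cage and 8.63 ± 0.48 with novelty in wild type, and 8.90 ± 0.18 and 8.82 ± 0.12 in cbp+/-. With TSA it was 8.96 ± 0.30 and 8.54 ± 0.25 in wild type, and 8.91 ± 0.31 and 8.84 ± 0.57 in cbp+/-. Its mean was lower with novelty in all 4 pairs of groups, and the arrays of the paired groups overlapped in all 4. Within array sets, Rps9 was lower with novelty in 10 of 12 pairs of arrays, 6 of 6 in wild type and 4 of 6 in cbp+/-, with differences from -0.64 to 0.18. Rps2 was also lower in 10 of 12, with differences from -0.58 to 0.21. Without cbp+/- novelty with vehicle replicate 1, the blocked value of Rps9 was -0.26 ± 0.059 and passed the threshold (limma adjusted p = 0.0456). Of 52 settings with 1 array left out, without or with the block, this was the only 1 that called a member for averaged novelty. With the block and all arrays, Rpl37a fitted at -0.16 ± 0.051 (0.24), and the highest members were Rpl29 (0.085 ± 0.052, 0.734), Rps3 (0.061 ± 0.045, 0.801) and Rpl12 (0.061 ± 0.072, 0.914).

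In the 4 separate comparisons with novelty, 0 members were called. Without the block, 0.01% of all genes were called in wild type with vehicle, 0% in cbp+/- with vehicle and 0.01% in each genotype with TSA, with 0, 0, 1 and 0 members at an unadjusted p under 0.05. With the block these shares were 0.11%, 0.0752%, 0.1% and 0.0451%, with 7, 1, 4 and 1 members at an unadjusted p under 0.05 (11.7%, 1.67%, 6.67% and 1.67% of members, against 8.14%, 5.75%, 6.17% and 3.32% of all genes). Medians were -0.10, -0.036, -0.064 and 0.040. Within array sets 2, 3 and 4 the mean member difference was -0.15, -0.041 and -0.047 in wild type with vehicle, -0.062, -0.014 and -0.013 in cbp+/- with vehicle, and -0.068, -0.039 and -0.15 in wild type with TSA. In cbp+/- with TSA it was 0.0089, -0.040 and 0.11, the comparison of the 4 that did not keep 1 sign.

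Loss of 1 cbp copy was compared with wild type in all 5 conditions. Averaged over them, 0 of 60 members were called without the block (1 at an unadjusted p under 0.05; 0% of all genes called) and 0 with it (6 at an unadjusted p under 0.05, 10% of members against 9.59% of all genes; 0.522% of all genes called). The median was 0.040, with 46 of 60 above 0, against -0.0015 over all genes, and the blocked intervals lay between -0.32 and 0.28. With the block, Rpl7l1 had the smallest p (0.12 ± 0.043, adjusted p = 0.312), followed by Rpl12, a protein of the stalk base (-0.18 ± 0.068, 0.344), and Rplp0 (0.16 ± 0.059, 0.344). Other members at the ends were Rps21 (0.14 ± 0.057, 0.374), Rps20 (0.13 ± 0.068, 0.587), Rpl38 (-0.12 ± 0.055, 0.507) and Rpl4 (-0.049 ± 0.038, 0.775).

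By condition, 0 members were called for genotype in any of the 5, and 0% of all genes were called except 0.00502% with vehicle and novelty under the block. Most members leaned the same way under TSA with novelty, where 52 of 60 were above 0 and the median was 0.096; 13 members (21.7%) against 7.95% of all genes had an unadjusted p under 0.05 with the block, and the smallest adjusted p was 0.371. Within the sets the mean member difference there was -0.048, 0.052 and 0.35, and 54 of 60 members were higher in set 4, which holds wild type with novelty and TSA replicate 3, the array that lay lowest in its set. The interactions of TSA with genotype, novelty with genotype and TSA with novelty called 0 members and 0% of all genes in both fits; novelty with genotype had 6 members at an unadjusted p under 0.05 with the block (10% against 7.8% of all genes) and 1 without it, and the other interactions had 0 in both.

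**Figure D4:**
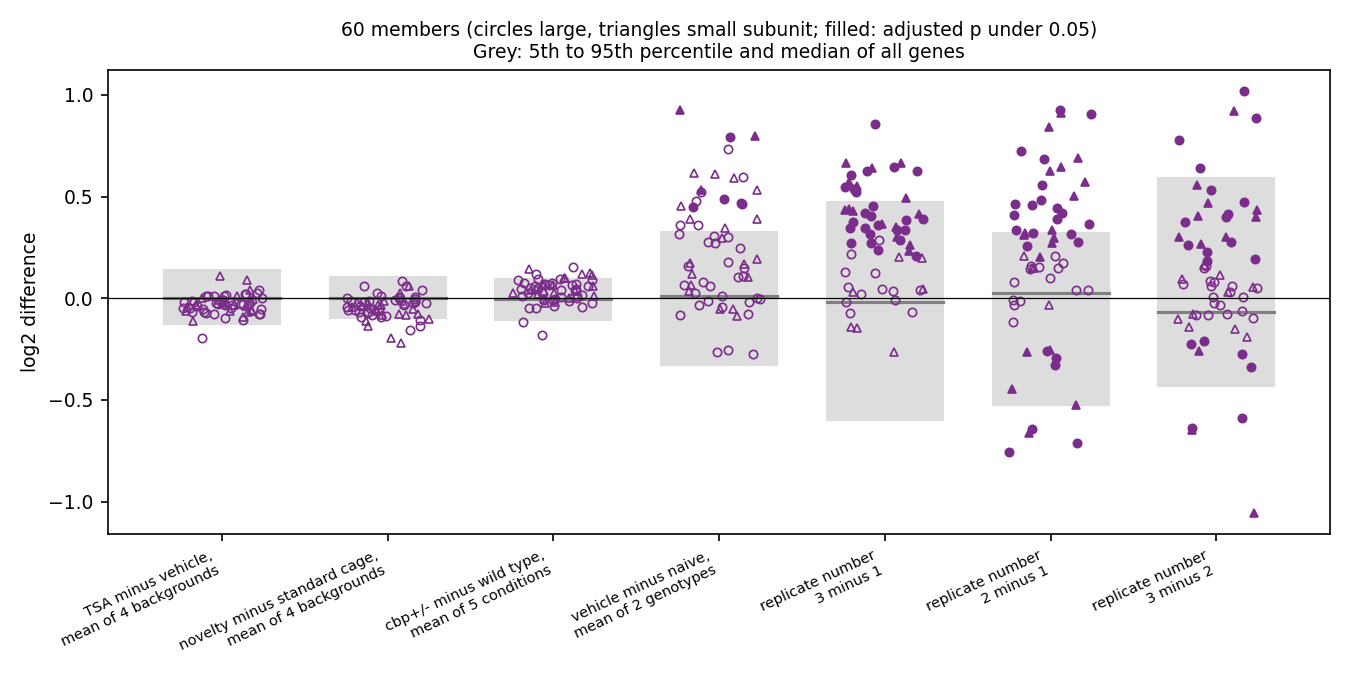
Log2 differences of the 60 members (points; filled where the limma adjusted p is under 0.05) in 4 averaged comparisons and 3 contrasts of replicate number, over the 5th to 95th percentile and median of 19938 genes (grey). Points are filled in vehicle minus naive (8 members) and between replicate numbers, and in none of the TSA, novelty and genotype comparisons.

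Vehicle-injected mice differed from naive mice in 8 ribosomal protein genes, all higher after vehicle. All naive arrays are array set 1 by definition and no vehicle array is, so injection and any difference between sets cannot be told apart in what follows. Averaged over genotypes, 8 of 60 members were called against 2.41% of all genes, or 1.08% called higher. The median member difference was 0.19, with 47 of 60 above 0, against 0.0085 over all genes, and 24 members (40%) against 14.4% of all genes had an unadjusted p under 0.05. The median was 0.32 over the 22 small subunit genes and 0.15 over the 38 large subunit genes, and the difference between these was not tested. In the genotypes separately 0 members were called, against 0.391% of all genes in wild type and 0% in cbp+/-, with 16 and 15 members at an unadjusted p under 0.05 and medians of 0.22 and 0.21.

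Rpl24, a large subunit protein at a bridge between the subunits, was measured at 9.88 and 9.75 in wild-type and 9.69 and 9.75 in cbp+/- naive mice. With vehicle it was 10.78, 10.35 and 10.51 in wild type and 10.80, 10.25 and 10.67 in cbp+/-. Every vehicle array lay above every naive array, and the difference was 0.79 ± 0.13 (SE, limma adjusted p = 0.00264). The other rows of Rpl24 gave 0.73 and 0.80. Rpsa, a small subunit protein also known as the laminin receptor, was 9.30 and 9.19 in wild-type and 9.29 and 9.37 in cbp+/- naive mice. With vehicle it was 10.38, 9.79 and 10.22 in wild type and 10.56, 10.10 and 10.21 in cbp+/-, again without overlap, a difference of 0.93 ± 0.17 (adjusted p = 0.00389). Its rows did not track each other closely (r = 0.234 for the top pair over 28 arrays), and its other 4 rows gave 0.38 to 0.71.

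Rplp2, the stalk protein that pairs with Rplp1, was 6.07 and 6.44 in wild-type and 6.17 and 6.09 in cbp+/- naive mice, and 6.48, 6.60 and 6.82 and then 6.66, 6.53 and 6.76 with vehicle. The lowest vehicle array was close to the highest naive array, and the difference was 0.45 ± 0.097 (adjusted p = 0.0144). Its partners had differences of 0.36 ± 0.11 (Rplp1, adjusted p = 0.0822) and 0.73 ± 0.27 (Rplp0, 0.167). Rplp0 with vehicle ran from 9.18 to 10.47, from within its naive range of 8.90 to 9.34 to well above it.

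Rps2 was 10.38, 10.42, 10.50 and 10.40 in the naive arrays (wild type first) and 10.82 to 11.19 with vehicle, a fitted difference of 0.53 ± 0.12 (adjusted p = 0.0192). Rps9 was 8.12, 7.94, 8.19 and 8.20 in the naive arrays and 8.52 to 9.15 with vehicle (0.80 ± 0.20, adjusted p = 0.0332). Rpl36 was 8.81 to 8.90 in naive and 9.24 to 9.45 in vehicle arrays (0.49 ± 0.11, 0.0165), Rpl27 8.31 to 8.50 and 8.61 to 9.03 (0.47 ± 0.11, 0.0201), and Rpl8, a protein near the catalytic centre, 9.37 to 9.57 and 9.73 to 10.34 (0.46 ± 0.12, 0.0346). None of these ranges overlap between naive and vehicle. At the other end were Rpl12 (-0.27 ± 0.12, 0.295), Rpl30 (-0.26 ± 0.13, 0.346) and Rpl4 (-0.26 ± 0.18, 0.586), which did not pass the threshold.

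**Figure D5:**
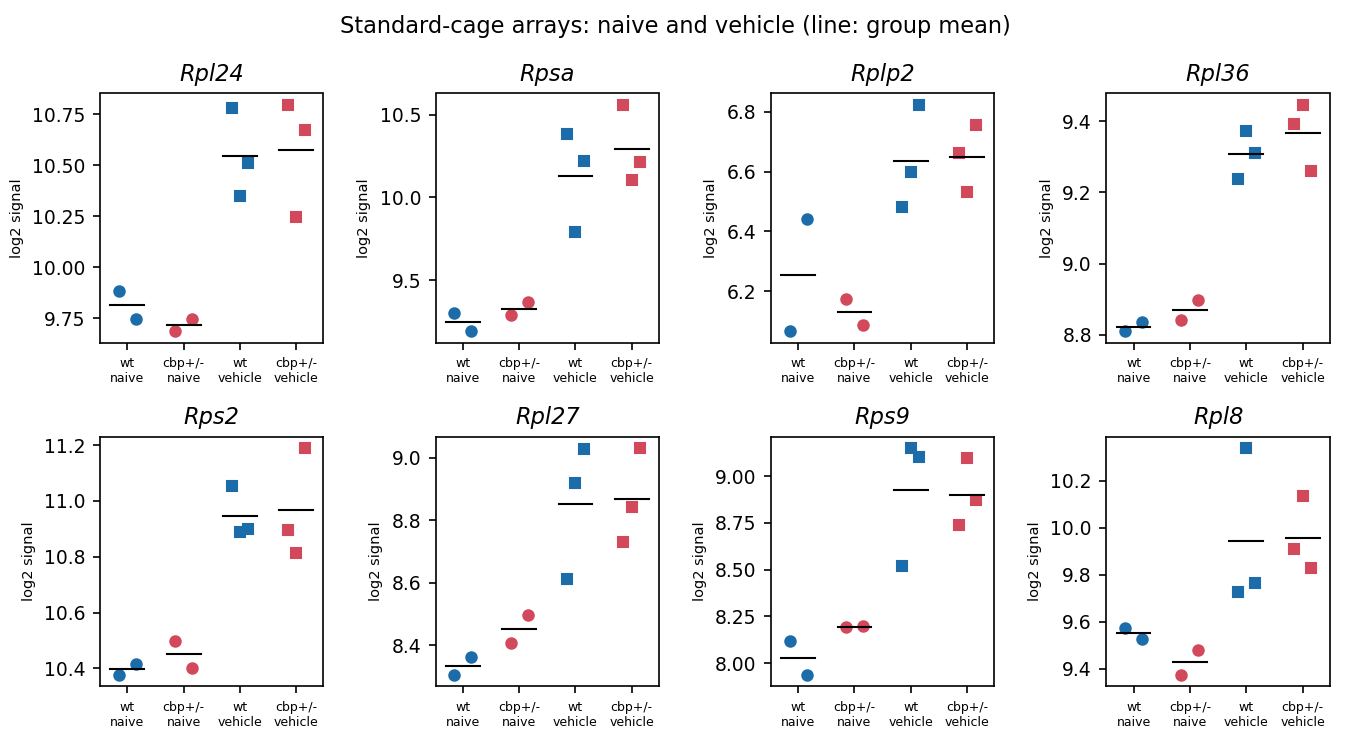
Log2 signal of the 8 members called between naive and vehicle mice in the standard cage, 1 point per array, with group means as lines (n = 2 naive and 3 vehicle arrays per genotype; axes do not start at 0). Every vehicle point lies above every naive point of the same gene.

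How many members were called rests on the few naive arrays. Leaving out any 1 of the 4 naive arrays left 2 or 3 calls: Rpl24 and Rpsa in each case, and Rplp2 where wild-type naive replicate 2 was the array left out. Leaving out any 1 of the other 24 arrays left up to 9. Rpl24 passed in all 37 alternatives run, with adjusted p between 2.6e-05 and 0.0256, and Rpsa in 36, with the exception of the mean of all rows per gene (adjusted p = 0.0556). Rplp2 passed in 34 of the 37, Rpl36 in 32, Rps2 in 31, Rpl27 in 30, Rps9 in 26 and Rpl8 in 25. Without the 3 arrays high in choroid plexus markers 7 members were called, with Rpl8 and Rps9 not among them. Of the marker lists, 3 of 3 CA1 markers (median 0.53) and 4 of 4 oligodendrocyte markers (0.28) were above 0 and 1 of 4 endothelial markers was (-0.22), none past the threshold, and their part in the result was not tested.

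The replicate number of the labels as a block over all 28 arrays gave other counts: 9 members called for TSA (17.5% of all genes), 13 for novelty (18.1%), 25 for vehicle against naive (36%) and 16 for TSA by novelty (18.8%). The vehicle arrays carry numbers that go against the sets (r from -0.593 to -0.291 with TSA and novelty arrays of the same number), so that block sets vehicle arrays of 1 set beside TSA and novelty arrays of another. In the 18 TSA and novelty arrays alone, where the numbers mark the sets, the block called 0 members in all 7 comparisons that could be made.

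Genes that work with the ribosome were counted by lists. Between naive and vehicle mice, Fau, the fusion gene of ribosomal protein S30, was higher by 0.52 ± 0.14 (adjusted p = 0.049), and Rps3a1, the other ribosomal protein gene measured outside the naming rule, differed by -0.23 ± 0.25 (0.778). The counts of the lists below stand against 2.41% of all genes called, 1.08% higher. A list of translation factors and TOP mRNAs held 23 genes, such as Tpt1 and Npm1, and whether each has a TOP tract was not checked. Of these, 1 rose (Eif3d, an initiation factor subunit, 0.38 ± 0.082) and 1 fell (Pabpc1, the poly(A)-binding protein, -0.37 ± 0.073). Of 46 genes of ribosome biogenesis, 2 rose (Bop1, 0.42 ± 0.082, and Rrp9, 0.42 ± 0.10) and 1 fell (Tsr1, -0.49 ± 0.099), with a list median of -0.096. Of 21 genes around mTOR, 1 rose (Ddit4, an inhibitor of mTOR complex 1 induced by stress and glucocorticoids, 0.66 ± 0.16) and 1 fell (Mycn, -0.29 ± 0.077). Of 77 mitochondrial ribosomal protein genes, 4 rose and 0 fell (Mrps11, 0.46 ± 0.10), and of 81 oxidative phosphorylation genes, 10 rose and 0 fell (Sdhb, 0.81 ± 0.13, and Uqcr11, 0.64 ± 0.093), with medians of 0.13 and 0.24. Of 15 genes of RNA polymerase I, 0 were called.

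With TSA and array set as a block, some of these lists held calls where the ribosomal protein genes held 0. In ribosome biogenesis 2 genes rose and 2 fell of 46 (Mphosph10, 0.25 ± 0.064, and Nmd3, which exports the large subunit and is released with the help of Rpl10, 0.17 ± 0.040; Utp20, -0.21 ± 0.042). In the RNA polymerase I list 2 rose and 1 fell of 15 (Polr1e, 0.27 ± 0.053, and Cd3eap, 0.14 ± 0.038; Taf1b, -0.16 ± 0.046). Around mTOR 3 rose and 1 fell of 21: Sesn2, which senses leucine and restrains mTOR complex 1, rose by 0.35 ± 0.070 and Eif4ebp2, the inhibitor of cap binding found in brain, by 0.22 ± 0.048, while Mlst8, an mTOR subunit, fell (-0.21 ± 0.047). Of 77 mitochondrial ribosomal protein genes 4 fell and 0 rose (Mrpl27, -0.19 ± 0.042). Of 81 oxidative phosphorylation genes and the 23 genes on the list of translation factors and TOP mRNAs, 0 were called. Among them 11 and 3 had an unadjusted p under 0.05, beside 16.2% of all genes. The share called over all genes was 4.63%, and the lists were not tested as sets. For novelty and genotype 0 genes of these 7 lists were called in either fit, beside 0.481% and 0.522% of all genes with the block. With the block, 24 and 31 list genes had an unadjusted p under 0.05, beside 8.4% and 9.59% of all genes. Without it 2 and 3 did, beside 2.48% and 2.38% of all genes.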

How the data were processed

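Total RNA of hippocampus was measured on 28 arrays. The deposited values are log2 signals per array row that the authors summarised with RMA, per the submitters' processing notes, after normalization in GeneSpring GX, per the labels' protocols; neither labels nor notes name a genome build for the rows. RMA scales arrays to 1 distribution, so a shift shared by all genes cannot be seen. Of 35556 rows, 21789 carried 1 gene symbol in the platform annotation, 1621 several and 12146 none. The highest-mean row stood for each of 19938 genes.

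limma 3.58.1 in R 4.3.3 fitted 1 mean per group over all 28 arrays, without a block (lmFit, eBayes; two-sided; Benjamini-Hochberg over all genes; threshold 0.05), and gave 22 comparisons. The number of arrays limits the precision. The script was tested on simulated data. Nothing says whether pools of a group were of separate litters or days. Without a block, p-values rest on the spread between arrays of a group, which includes the differences between array sets. With array set as a block, they rest on the spread left within sets.

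Whether replicate numbers pair arrays was decided from correlations of deviations from group means before calls were compared. By their values and not by the labels, the numbers pair the 18 TSA and novelty arrays with each other. They also pair vehicle arrays of the 2 genotypes (r from 0.583 to 0.768 in 3 pairs), but not vehicle arrays with the TSA and novelty arrays. Array set as a block is an alternative that rests on these values. Others were pooled controls, arrays left out, array weights, an intensity trend, other normalizations and rows, and a filter on dim genes. The members and all lists were chosen with earlier results of these data known. Named members were those of set roles (stalk, Rpsa, Rps6, Rpl5, Rpl10, Rpl22, Rps4x, Rpl41, paralogues), the 3 highest and 3 lowest per averaged comparison, up to 8 with the smallest p past the threshold, and the 3 most and 3 least correlated with the other members; of other lists, up to 3 genes past the threshold. Marker lists were used only as values beside the sets. Promoter sequences are from RefSeq (GRCm38.p6).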

Additional observations from a re-analysis of the deposited data

How the results depend on the processing

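Of the 22 comparisons, counts of called members for TSA, novelty, genotype and their interactions were 0 without a block and stayed 0 in all but the following alternatives. The replicate number of the labels as a block (replicate block) puts vehicle arrays beside arrays of another set. With it, TSA in the cage called 13 members in wild type and 13 in cbp+/-, beside 3483 and 3274 of all 19938 genes. Novelty with vehicle called 17 and 14, beside 3964 and 3532 genes. Averaged TSA called 9 (17.5% of all genes), averaged novelty 13 (18.1%) and TSA by novelty 16 (18.8%). Vehicle minus naive called 23 in wild type, 17 in cbp+/- and 25 averaged, beside 6877, 5537 and 7176 genes. The member median of vehicle minus naive moved from 0.19 to -0.093. Rpl27, Rpl8, Rps2 and Rps9 were not called there (adjusted p = 0.706, 0.249, 0.129 and 0.16), and 8 of the 25 were higher with vehicle. That block left the other comparisons at 0, and within the 18 TSA and novelty arrays alone, chosen after the data were seen, it called 0. With array quality weights Rpl10l was called between naive genotypes (1 member), and vehicle minus naive called 14, 5 and 23 members (wild type, cbp+/- and averaged). With quantile normalization repeated, vehicle minus naive called 2, 1 and 4. Shares of all genes called under array weights, repeated normalization or arrays left out are not given here, so counts there lack a background. With array set as a block and set 2 left out, Rpl24 was called for genotype under TSA and novelty (1 member, 0.60). Leaving out 1 array at a time, averaged novelty called 0 to 1 members and averaged vehicle minus naive 2 to 9. The cause was not tested. Medians of members for TSA, novelty and genotype are small beside the spread between arrays and moved by over 1.5 times with 1 array: with 1 left out they ran from -0.064 to 0.00028 (TSA, -0.030 with all), from -0.071 to -0.0084 (novelty, -0.035) and from 0.012 to 0.063 (genotype, 0.040). With the replicate block those of TSA and novelty turned to 0.11 and 0.10, and with the set block and set 4 left out that of genotype was 0.000150.
Pools of mice, 2 naive arrays per genotype, and naive arrays kept as a set of their own by condition limit what these data can show. Signal over background was not used here.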
